A study of Mus musculus with 12 samples.

Results

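The genes described here are 10 genes of early lymphoid development, Dntt, Il7r, Satb1, Ebf1, Vpreb1, Igll1, Ighm, Ikzf1, Ikzf3 and Rag1. They were taken by name from the 46103 genes that the 12 libraries list, and none of the 10 was listed as numbered copies. Of the 10 genes, 8 had reads in at least 1 library, and 3 (Dntt, Satb1 and Ikzf1) reached 1 RPKM (reads scaled to transcript length and library size) in at least 3 libraries, which was the level required for the test across all genes.

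The libraries came from a mouse model of chronic myeloid leukemia (CML), in which bone marrow cells of 5FU-treated G0M mice were infected with a retrovirus carrying BCR-ABL1 and GFP (MSCV-BCR-ABL1-IRES-GFP) and transplanted, together with support bone marrow cells, into lethally irradiated C57BL/6 mice. G0M is a marker of quiescence, a fusion of mVenus with a p27 that lacks its kinase-inhibiting activity (p27K-), placed in the Rosa26 locus and switched on by Vav1-Cre, which acts in blood-forming cells. Per the labels, all 4 groups were sorted from bone marrow and spleen as BCR-ABL1+ Lin- Sca1+ cKit+ CD27+ cells, 100 cells per library and 3 libraries per group. DP cells (G0M+ CD27+) and SP cells (G0M- CD27+) came from mice given vehicle, and IMDP and IMSP cells were the corresponding G0M+ and G0M- cells after imatinib, which blocks the kinase activity of BCR-ABL1 and was given once daily by oral gavage. The Lin- gate used antibodies to CD5, TER-119, CD11b, Gr-1 and B220 and so removed cells bearing these B cell, T cell, erythroid and myeloid surface proteins. The labels do not say whether libraries of a group came from separate mice, so p-values measure only the spread between these libraries. All imatinib libraries carried the numbers 1 to 6 and all vehicle libraries the numbers 7 to 12, so that treatment and library order cannot be told apart.

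In blood formation, multipotent progenitors begin to transcribe lymphoid genes at a low level before they lose their myeloid potential, a state called lymphoid priming. The zinc finger factors of the Ikaros family and the chromatin organizer Satb1 act early in this process, the IL-7 receptor then carries growth signals, and Ebf1 sets the B cell program. The recombinase made by Rag1 with its partner assembles antigen receptor genes, terminal transferase (Dntt) adds nucleotides at the joints, and the surrogate light chain of Vpreb1 and Igll1 pairs with the heavy chain of Ighm in the pre-B cell receptor.

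Dntt and Satb1 are shown by their promoters because they were the members that were highest in the same imatinib libraries. Each sequence is the 250 bases before the start that RefSeq gives (build GRCm38.p6, for Satb1 the outermost of 5 starts), written 5′ to 3′ on the strand of the gene, and capitals mark GGGAA on either strand, the core that Ikaros proteins bind. These letters also hold the GGAA core of ETS factors and part of NF-κB sites, so a match is a description of the sequence and not a site.
Dntt, chr19:41029025-41029274, plus strand: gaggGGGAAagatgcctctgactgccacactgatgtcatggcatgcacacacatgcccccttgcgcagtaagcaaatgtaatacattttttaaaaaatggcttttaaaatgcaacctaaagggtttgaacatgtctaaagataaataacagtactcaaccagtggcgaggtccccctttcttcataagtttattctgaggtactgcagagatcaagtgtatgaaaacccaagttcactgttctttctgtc
Satb1, chr17:51833291-51833540, minus strand: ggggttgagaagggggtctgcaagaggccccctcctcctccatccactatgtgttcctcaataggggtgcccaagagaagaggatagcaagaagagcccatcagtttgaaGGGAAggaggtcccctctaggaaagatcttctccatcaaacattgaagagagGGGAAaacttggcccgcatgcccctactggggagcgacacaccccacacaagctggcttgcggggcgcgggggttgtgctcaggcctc

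The Dntt window held 1 match to GGGAA and the Satb1 window held 2. Of the 8 members with a promoter in the RefSeq table, 6 held at least 1 match, beside 56.2% of 32851 promoter windows of the same length. The E-box CANNTG was present 3 times before Dntt and was not found before Satb1, and 5 of the 8 members held it, beside 66.2% of all windows. The letters TGTGGT, the core of RUNX sites, were found in 3 of the 8 members (14.0% of all windows), and TTCNNNGAA, the core of STAT sites, in 1 (7.02%). No promoter was printed or searched for Ighm and Ikzf3, which had no entry in the table.

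Ikzf1, Satb1 and Dntt were the members with the highest levels, and the 5 other members with reads stayed below 1 RPKM in every library (plot of member levels). Ikzf1 averaged 15.7 RPKM over 12 libraries, Satb1 1.97 and Dntt 1.95, all per length of transcript, and Il7r averaged 0.196. Because RPKM values were whole numbers of reads, the reads are given beside the levels of the sparse members. The libraries held 11367631 to 20573779 reads, of which 25.9% to 37.1% fell on listed features, and 1 read on a transcript of 1 kb was worth 0.0486 to 0.088 RPKM.

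**Figure D1:**
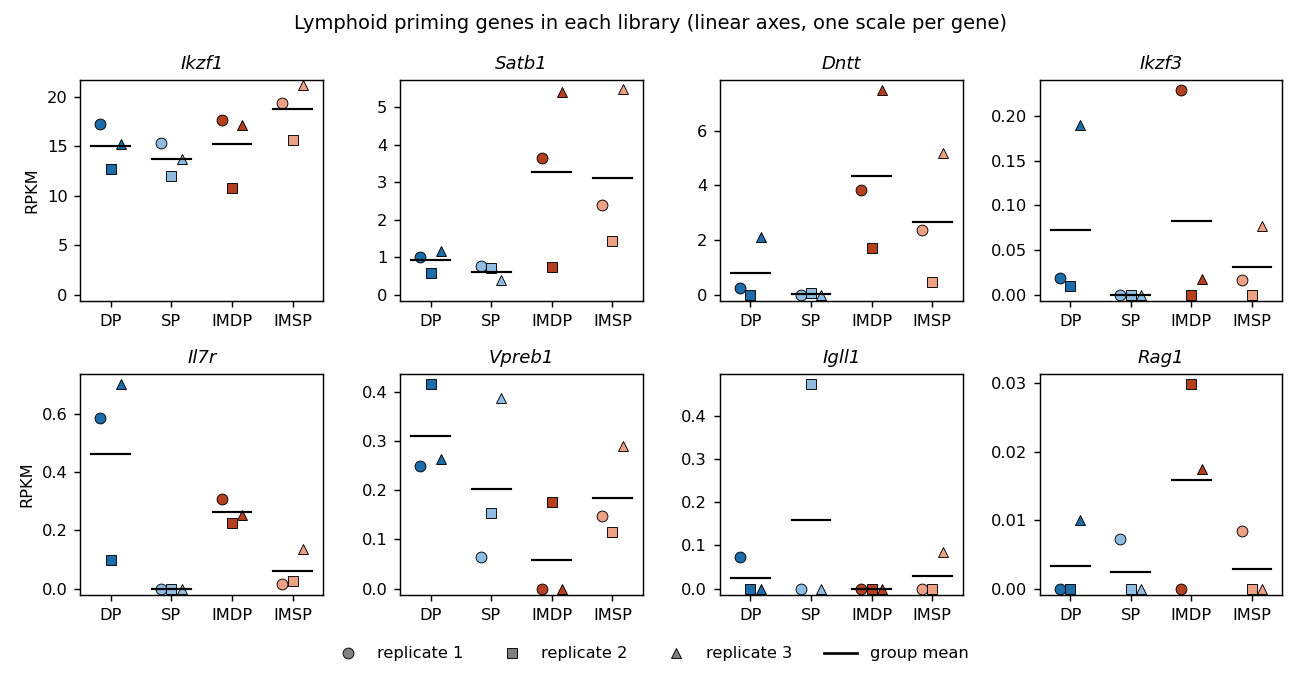
RPKM of the 8 members with reads in each of the 12 libraries, on linear axes with a scale of its own for each gene; points are libraries, the shape gives the replicate and the bar the mean of 3. Dntt lies higher in IMDP and IMSP than in most vehicle libraries, as does Satb1 except in the second IMDP library, and Il7r lies at 0 in all 3 SP libraries.

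Dntt, which encodes terminal deoxynucleotidyl transferase and lies on chromosome 19 of GRCm38 from 41029275 to 41059525, was higher in imatinib than in vehicle libraries. In DP cells its level was 0.24, 0 and 2.13 RPKM in the first, the second and the third replicate, and in SP cells it was 0, 0.0554 and 0 RPKM. In IMDP cells it was 3.82, 1.7 and 7.48 RPKM, and in IMSP cells 2.35, 0.454 and 5.19 RPKM. All 3 IMSP libraries lay above all 3 SP libraries, whereas the third DP library lay above the second IMDP library, so the G0M+ groups overlapped.

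The reads behind these levels were few in the vehicle groups. Dntt had 75 reads in the 3 DP libraries and 2 in the 3 SP libraries, against 429 in IMDP and 248 in IMSP. The third DP library held 67 of the 75 DP reads. Relative to library totals, IMSP held 149 times the Dntt reads of SP, with an exact (Clopper-Pearson) 95% interval of 40.8 to 1240, and IMDP held 5.89 times those of DP (4.6 to 7.64). These intervals cover counting error only, and amplified reads without molecular identifiers are not independent molecules. In 100 sorted cells, more cells with Dntt and more Dntt RNA per cell cannot be told apart.

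On log2(RPKM + 0.1), Dntt rose by 3.61 (SE 0.74) in imatinib against vehicle averaged over both populations (limma, adjusted p = 0.0497 over all genes). It was the only member called in any of the 7 contrasts, and 0.854% of the 10072 tested genes were called in this one. The fit took the 12 libraries as independent. Neighbouring library numbers, paired within a treatment, shared deviations (correlations of 0.429 to 0.655), so SE and p of this contrast may be too small. The call lay at the threshold: it was lost under 4 of 7 other settings and when any of 9 of the 12 libraries was left out, with adjusted p values up to 0.135 (plot of settings). With a pseudocount of 1 the log2 difference was 1.61 (adjusted p = 0.0678, limma), since a fold against libraries at 0 is set by the pseudocount. Dntt passed the filter only through the libraries in which it was high, so that its passing is itself tied to a difference.

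Within populations the same gene did not pass. IMDP exceeded DP by 3.16 (SE 1.05, limma adjusted p = 0.14) and IMSP exceeded SP by 4.06 (SE 1.05, limma adjusted p = 0.406), both on the log2 scale. In IMDP against DP no member was called by limma or limma-voom, beside 0.367% of all genes tested. At an unadjusted limma p under 0.05 stood 1 of 3 tested members, beside 2061 of 10072 genes tested. In IMSP against SP no member and no other gene was called (0.0%). There 3 of 3 tested members had an unadjusted limma p under 0.05, beside 845 of 10072 genes tested. The interaction of population and treatment was -0.9 for Dntt (SE 1.49, limma adjusted p = 0.861), and no member or other gene was called for it by limma (0.0%). None of the 3 tested members was called for it by limma-voom or had an unadjusted limma p under 0.05.

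**Figure D2:**
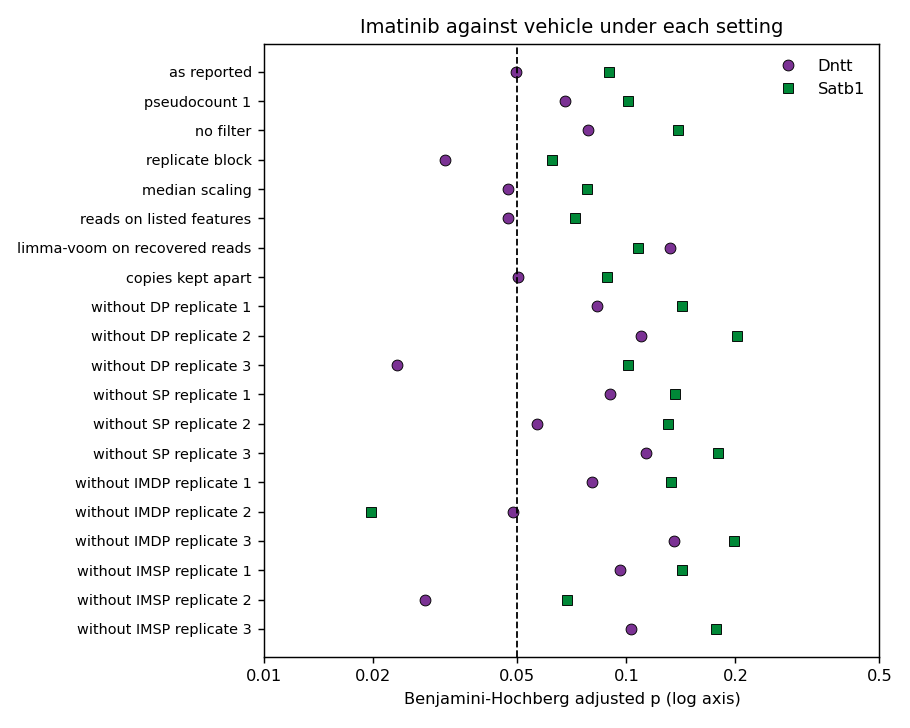
Benjamini-Hochberg adjusted p (log axis) of Dntt (circles) and Satb1 (squares) for imatinib against vehicle, as reported in the top line and under each other setting below it; the dashed line is 0.05. Dntt sits at 0.0497 as reported and on both sides of the line elsewhere, and Satb1 is left of it only without the second IMDP replicate (0.0197).

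Satb1, a chromatin organizer of lymphoid progenitors on chromosome 17 from 51736187 to 51833290, had more reads than Dntt and a smaller difference. Its levels were 1.02, 0.589 and 1.16 RPKM in DP and 0.764, 0.707 and 0.391 RPKM in SP. In IMDP they were 3.64, 0.734 and 5.41 RPKM, and in IMSP 2.4, 1.43 and 5.47 RPKM. Every IMSP library lay above every SP library, while the second IMDP library lay within the DP range.

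Satb1 differed by 1.68 (SE 0.45) on the log2 scale between imatinib and vehicle, which did not pass (limma, adjusted p = 0.0894). Without the second IMDP replicate the difference was 2.09 and passed (adjusted p = 0.0197, limma), the only 1 of 19 other settings in which it did. Within populations the log2 differences were 1.38 (SE 0.64) for IMDP against DP and 1.99 (SE 0.64) for IMSP against SP, neither of which passed (limma adjusted p = 0.248 and 0.465). Of the 7 libraries with at least 1 RPKM of Satb1, only the first and the third DP library were vehicle libraries. Like Dntt, Satb1 thus passed the filter through imatinib libraries in which it was high, so its passing is tied to a difference.

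Among the imatinib libraries, Dntt and Satb1 took the same order in both populations, with the third replicate highest, the first between, and the second lowest. Flt3, a cytokine receptor of lymphoid-primed progenitors that was named after its values were seen, was 8.47, 1.17 and 9.33 RPKM in IMDP and 4.01, 1.77 and 8.1 RPKM in IMSP, against 0.924 to 1.78 RPKM in the 6 vehicle libraries. Its second imatinib replicates were thus the lowest of their groups as well, and its log2 difference of 1.63 (SE 0.48) between imatinib and vehicle did not pass (limma adjusted p = 0.113).

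The megakaryocyte genes as a sum were highest, among the imatinib libraries, in the second replicates. Vwf (von Willebrand factor) was 24.1 RPKM in the second IMDP and 17.7 RPKM in the second IMSP library, and at most 0.748 RPKM in the 4 other imatinib libraries. The 5 genes of the list summed to 74.8 RPKM in the second IMDP library and 55.6 RPKM in the second IMSP library, against 7.11 to 19.8 RPKM in the other imatinib libraries, and none of the 5 was at 0 in every library of a group. In vehicle libraries the sum ranged from 26.9 to 68.1 RPKM in DP and from 11.7 to 46.3 RPKM in SP. Whether the differing replicates had a part in the Dntt and Satb1 results was not tested beyond leaving each library out.

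**Figure D3:**
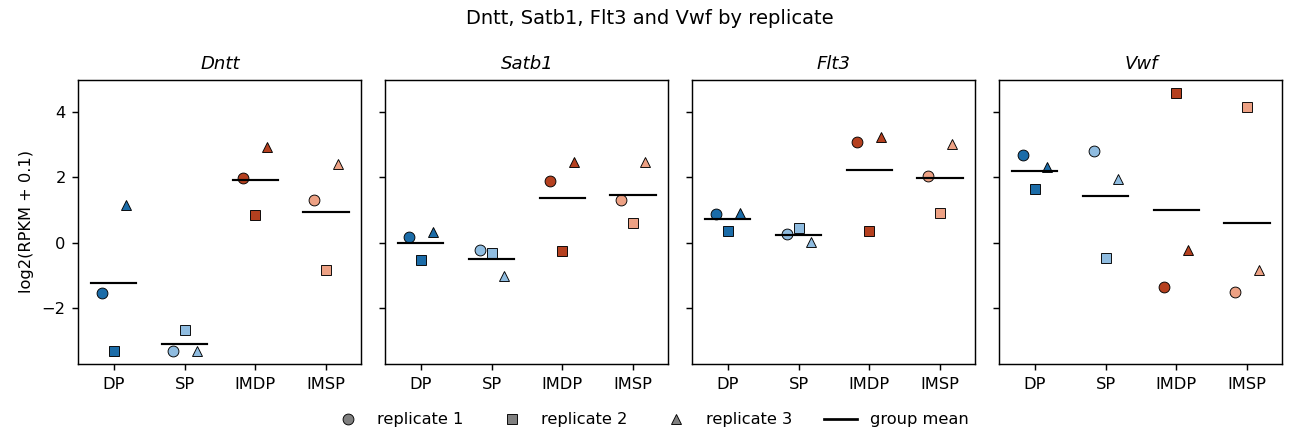
log2(RPKM + 0.1) of Dntt, Satb1, Flt3 and Vwf in each library, with the shape giving the replicate and the bar the mean of 3. In IMDP and IMSP the second replicate (squares) is lowest for Dntt, Satb1 and Flt3 and highest for Vwf.

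Ikzf1, which encodes Ikaros and lies on chromosome 11 from 11685003 to 11772926, was present at similar levels throughout. Its levels were 17.3, 12.7 and 15.2 RPKM in DP, 15.3, 12.0 and 13.7 RPKM in SP, 17.7, 10.8 and 17.2 RPKM in IMDP, and 19.4, 15.6 and 21.2 RPKM in IMSP. The IMSP libraries lay just above the SP libraries (15.6 against 15.3 RPKM at the nearest), and all other pairs of groups compared overlapped. IMSP was the highest group at 18.7 ± 2.85 RPKM (SD, n = 3) and SP the lowest at 13.7 ± 1.64 RPKM (SD, n = 3), with DP and IMDP between them and within their spread.

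In none of the 7 contrasts did Ikzf1 pass the test, and its log2 differences ranged from -0.46 to 0.45. Between imatinib and vehicle it was 0.22 (SE 0.15, limma adjusted p = 0.45), and between G0M+ and G0M- cells it was -0.09 (SE 0.15, limma adjusted p = 0.654), the latter changing sign to 0.07 when libraries were scaled to their median. The median of all genes was itself -0.25 in IMDP against IMSP, -0.17 in IMDP against DP and -0.13 for G0M+ against G0M-. Relative to it, Ikzf1 differed by -0.07, 0.16 and 0.04 in these contrasts.

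The genes with the pattern most like Ikzf1, by Pearson's r on log2(RPKM + 0.1) over the 12 libraries, were Ric8a (0.939), Akna (0.899) and Angptl4 (0.899). These values describe libraries that share preparation and depth, and carry no test. Ric8a averaged 11.8, 10.5, 12.3 and 14.5 RPKM in DP, SP, IMDP and IMSP cells.

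All 3 IMSP libraries exceeded all 3 SP libraries for Ikzf1, Satb1 and Dntt alike. Of all genes tested, 11.1% were separated in this direction. For Satb1 and Dntt no SP library reached 1 RPKM. Their place among the genes tested is thus tied to the higher libraries, and the share is not an even comparison for them. IMDP and DP overlapped for each of the 3 genes.

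Between G0M+ and G0M- cells the members past the filter did not pass the test. In DP against SP no member was called by limma or limma-voom and none of the 3 had an unadjusted p under 0.05 (2.26% of all genes tested were called), and the same held for IMDP against IMSP (25.6%) and for the average over treatments (26.3%). Dntt had the largest difference, 1.87 (SE 1.05) for DP against SP, 0.97 (SE 1.05) for IMDP against IMSP and 1.42 (SE 0.74) for their average on the log2 scale (limma adjusted p = 0.475, 0.52 and 0.169). With pairs of neighbouring library numbers as a block, which share deviations in both treatments, the average for Dntt passed (limma adjusted p = 0.0425), in a fit that called 46.9% of all genes tested. Satb1 differed by 0.5 (SE 0.64) for DP against SP and by -0.1 (SE 0.64) for IMDP against IMSP (limma adjusted p = 0.747 and 0.919).

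**Figure D4:**
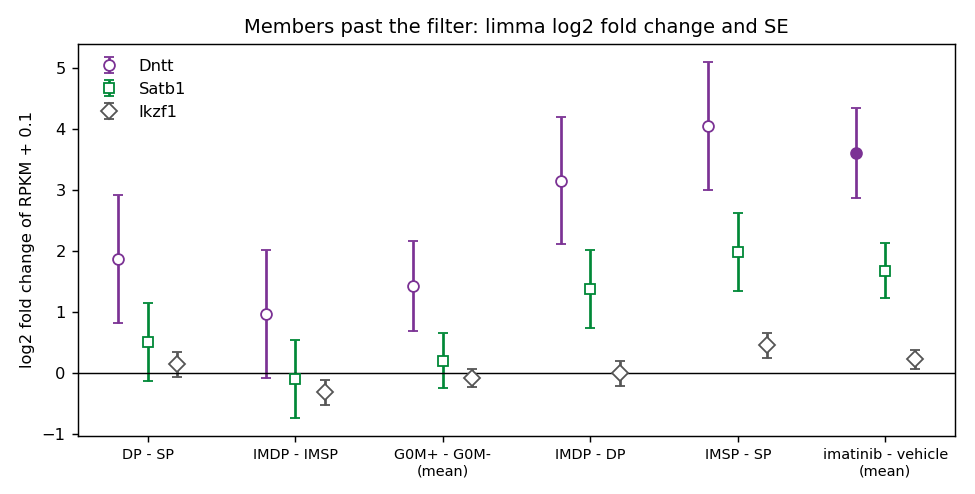
Log2 fold change of RPKM + 0.1 with its SE (bars) for Dntt, Satb1 and Ikzf1 in 6 contrasts, filled where the adjusted p was under 0.05. The single filled point is Dntt in imatinib against vehicle (3.61), and the Ikzf1 points lie nearest to 0 in 5 of the 6 contrasts.

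Il7r, the receptor chain that binds IL-7 (chromosome 15 from 9505788 to 9530176), was below 1 RPKM in every library and higher in G0M+ cells. It was 0.586, 0.0977 and 0.703 RPKM in DP, from 30, 5 and 34 reads, and had no read in any SP library. In IMDP it was 0.308, 0.226 and 0.253 RPKM, from 13, 11 and 14 reads, and in IMSP 0.0174, 0.0269 and 0.136 RPKM, from 1, 1 and 6 reads. Both DP over SP and IMDP over IMSP were separated without overlap, beside 8.86% and 6.78% of the 16776 genes with reads, but the second DP library lay below the third IMSP library.

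Averaged over treatments, Il7r was 0.362 RPKM in the 6 G0M+ libraries and 0.0301 RPKM in the 6 G0M- libraries (exact two-sided permutation test, p = 0.00433, where 0.00216 is the smallest p that 6 against 6 libraries can give). This test permutes all 12 libraries without regard to treatment or library pairs. Permuted within treatment, Il7r gave an exact two-sided p of 0.005, the smallest that these 400 arrangements allow. It was 1 of 5 members tested over all libraries in 6 contrasts each, 30 tests in all, and neither p is adjusted for them. Within a treatment, 3 libraries against 3 allow no exact permutation p below 0.1, which is the value Il7r reached in both. Relative to library totals, DP held at least 25.4 times the Il7r reads of SP, taking 3 reads over the SP group as the limit that a count of 0 allows, and IMDP held 4.5 times those of IMSP (exact 95% interval 2.07 to 11.2, counting error only).

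When all 16776 genes with reads were tested without the filter, Il7r passed for G0M+ against G0M- averaged over treatments (log2 difference 1.75, SE 0.33, limma adjusted p = 0.00758, where 13.8% of genes were called) and for DP against SP (2.26, SE 0.47, adjusted p = 0.0475, where 1.2% were called). With every SP library at 0, the size of the DP against SP difference is set by the pseudocount, and no other pseudocount was fitted for Il7r. IMDP against IMSP did not pass (1.25, SE 0.47, limma adjusted p = 0.109, where 12.8% were called). Imatinib against vehicle gave 0.161 against 0.231 RPKM for Il7r (exact two-sided permutation test over 6 and 6 libraries, p = 0.61).

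The partners of Il7r were expressed at higher levels. Il2rg, the common chain that pairs with Il7r, was higher in G0M+ than G0M- cells by 0.56 (SE 0.13, limma adjusted p = 0.0118) on the log2 scale, at 33.7 to 37.2 RPKM in DP and 18.9 to 25.4 RPKM in SP, with overlapping ranges of 24.5 to 29.1 RPKM in IMDP and 15.2 to 26.0 RPKM in IMSP. Jak3, the kinase bound to that chain, rose by 0.58 (SE 0.11, limma adjusted p = 0.0367) in imatinib against vehicle, from 7.46 to 12.0 RPKM in the vehicle libraries to 11.4 to 16.7 RPKM with imatinib. Of the 9 tested genes among 11 IL-7 receptor signaling partners, 1 was called higher in G0M+ cells and 1 higher with imatinib. Of all genes tested, 26.3% and 0.854% were called in these contrasts. The median log2 differences of the 9 were 0.28 and -0.03, beside -0.13 and -0.05 for all genes. Scaled to the median of each library, 5 of the 9 were called higher in G0M+ cells (Crlf2, Il2rg, Jak1, Jak3 and Mcl1), where 2360 of 10072 genes were called. With the library-number block 6 of the 9 were, Cish being the other, where 46.9% of genes were called. Limma-voom called 2 (Il2rg and Jak3), where it called 2839 of 10072 genes.

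**Figure D5:**
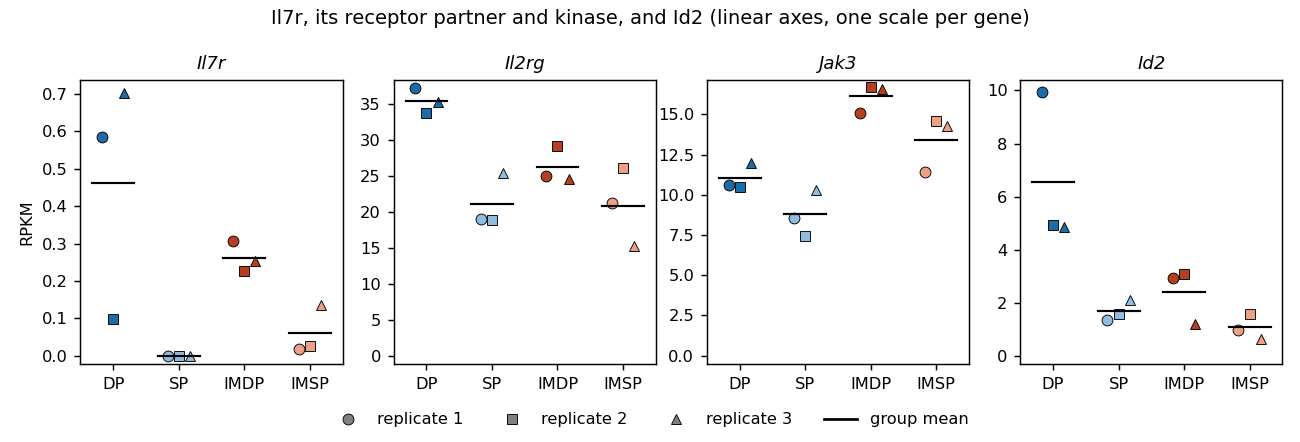
RPKM of Il7r, its partner chain Il2rg, the kinase Jak3 and the E-protein inhibitor Id2 in each library, on linear axes with a scale for each gene; the shape gives the replicate and the bar the mean of 3. Il7r is at 0 in all SP libraries and lies between 0.226 and 0.308 RPKM in IMDP.

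Vpreb1 and Igll1, which encode the parts of the surrogate light chain and lie beside each other on chromosome 16, were at the edge of detection. Vpreb1 had 11 reads in the 3 DP, 7 in the SP, 2 in the IMDP and 6 in the IMSP libraries, and Igll1 had 9 reads over all 12 libraries, of which 7 lay in the second SP library. Each DP library exceeded each IMDP library for Vpreb1 (3 to 5 against 0 to 2 reads), beside 12.8% of genes with reads that were separated in this direction. The exact permutation p was 0.1 for 3 against 3, the smallest it can be. Averaged over populations, Vpreb1 was 0.121 RPKM with imatinib and 0.256 RPKM with vehicle (exact two-sided permutation p = 0.0844).

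Ikzf3 encodes Aiolos, an Ikaros family protein of later lymphoid cells, and lies on chromosome 11 from 98464902 to 98546031. It had reads in 7 of 12 libraries, 19 in the third DP and 20 in the first IMDP library and at most 7 in any other, with 0 in all SP libraries. G0M+ libraries averaged 0.0775 RPKM and G0M- libraries 0.0156 RPKM (exact two-sided permutation p = 0.206 over 6 and 6 libraries). The first IMDP library also had the highest Cd3e (1.27 RPKM), a T cell receptor subunit at 0 in 10 of the 12 libraries, and the highest Ncr1 (1.18 RPKM), an NK cell receptor at most 0.344 RPKM elsewhere. Whether these had a part in its Ikzf3 reads was not tested.

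Rag1, a subunit of the V(D)J recombinase on chromosome 2, had 8 reads in all, 5 of them in IMDP libraries, and never exceeded 0.0299 RPKM. Its partner Rag2 was likewise low, at most 0.119 RPKM in any library. No contrast of Rag1 gave an exact permutation p below 0.227. Differences of Rag1 between groups were not detectable at this depth.

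Ebf1, the factor that sets the B cell program (chromosome 11 from 44617317 to 45008091), had no read in any library. At its exon length of 9756 bases in GENCODE, the 3 reads that a count of 0 allows correspond to 0.0149 to 0.027 RPKM per library. Pax5, which acts with Ebf1, was listed at 0 in all 12 libraries as well.

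Ighm, the heavy chain constant gene on chromosome 12, was also listed at 0 throughout, but this value carries no information. All 489 antigen receptor gene segments and constant genes in the files, among them all 16 constant genes, were at 0 in every library, whereas 15747 of 20468 protein-coding genes had reads. No limit on Ighm is therefore given.

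The markers of mature lymphoid cells, apart from the NK cell gene Gzma in DP cells, were low or rested on genes that other blood cells share. The 8 genes of the mature B cell list summed to 3.01 to 3.53 RPKM in DP, 1.6 to 3.96 in SP, 2.99 to 4.21 in IMDP and 1.81 to 4.75 in IMSP, of which Cd79b (1.27 to 4.0 RPKM) was most, with Fcer2a next at 0.0619 to 0.357 RPKM. Ms4a1 and Igkc were at 0 in all libraries, the latter being one of the uninformative constant genes.

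The 8 genes of the T cell list summed to 10.7 to 16.2 RPKM in DP, 11.1 to 14.3 in SP, 7.37 to 12.7 in IMDP and 4.4 to 10.4 in IMSP, mostly from Thy1 and Lck, and without these the first IMDP library was highest at 3.51 RPKM. The 6 genes of the NK cell list summed to 83.2 to 181 RPKM in DP, 91.4 to 265 in SP, 26.3 to 83.3 in IMDP and 62 to 165 in IMSP, mostly from Nkg7. Gzma was next, at 1.23 to 20.5 RPKM in DP and at most 0.941 in SP, 1.68 in IMDP and 0.591 in IMSP. Without Nkg7 and Gzma the list summed to at most 1.9 RPKM. The 6 genes of the plasmacytoid dendritic cell list, a lineage that can carry lymphoid transcripts, summed to 20.3 to 24.6 RPKM in DP, 18.4 to 19.8 in SP, 12.2 to 14.4 in IMDP and 17.3 to 18.2 in IMSP, nearly all from Bst2, and its defining gene Siglech was at 0 in all 6 imatinib libraries. Without Bst2 and Ccr9 the list summed to at most 0.95 RPKM.

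Of 24 lymphoid regulators outside the members, 19 were tested, and none was called for imatinib against vehicle (median log2 difference 0.11 beside -0.05 for all genes). For G0M+ against G0M-, 2 of the 19 were higher and none lower, where 26.3% of all genes tested were called. With the library-number block 3 were higher (Bcl11a, Id2 and Sox4) and 3 lower (Gfi1, Irf8 and Spi1), where 46.9% of all genes tested were called. After scaling to the median 4 were higher (Bcl11a, Ets1, Id2 and Sox4) and none lower, where 2360 of 10072 genes were called. Id2, an inhibitor of E-proteins, was 4.84 to 9.94 RPKM in DP and 1.34 to 2.1 RPKM in SP, and was higher in G0M+ cells by 1.46 (SE 0.29, limma adjusted p = 0.00497). With imatinib its ranges overlapped, at 1.21 to 3.07 RPKM in IMDP and 0.641 to 1.59 RPKM in IMSP. That difference of 1.07 was not called (limma adjusted p = 0.0719), except with median scaling (0.0387), reads on listed features as denominator or the library-number block (0.00853). Bcl11a, a factor needed for B cell development, was higher in G0M+ cells by 0.61 (SE 0.19, limma adjusted p = 0.0357), a call lost with the replicate number as a block (adjusted p = 0.0528) and kept with the library-number block (adjusted p = 0.00494).

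Tcf7, a factor of T cell and innate lymphoid development, was higher in IMDP than IMSP cells by 1.32 (SE 0.42, limma adjusted p = 0.0383), with 4.55, 1.79 and 2.18 RPKM in IMDP and 1.02, 0.611 and 1.52 RPKM in IMSP. The highest of these was the first IMDP library, the one with the most Cd3e, and limma-voom did not call Tcf7 (adjusted p = 0.0523). Among the 11 lymphoid-primed surface genes, 7 were tested, and Cd44, an adhesion receptor of most blood cells, was lower in G0M+ cells, with a log2 difference of -0.31 (SE 0.1, limma adjusted p = 0.0427), which was -0.15 and did not pass after scaling to the median (adjusted p = 0.285). None of the 7 was called with imatinib (median log2 difference 0.26 beside -0.05 for all genes).

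Most of the joining partners of Rag1 and Dntt are general DNA repair proteins, though Rag2 and Hmgb1 on the list are not, and 8 of 11 were tested. In G0M+ against G0M- cells Prkdc, the catalytic subunit of DNA-PK, was higher by 0.29 (SE 0.09, limma adjusted p = 0.0293), and 3 were lower, with log2 differences of -0.79 for Hmgb1, -0.75 for Nhej1 and -0.42 for Poll (limma adjusted p = 0.0116, 0.0362 and 0.0366). After scaling to the median, Nhej1 and Poll were no longer called (limma adjusted p = 0.0693 and 0.158) and 2 of the 8 were higher (Prkdc and Xrcc5) and 1 lower (Hmgb1). Limma-voom called Prkdc higher and Hmgb1 lower only, and Poll was also lost with the replicate number as a block (adjusted p = 0.0522). With imatinib none of the 8 was called. Of 14 pre-B cell receptor partners 7 were tested. As reported only Lyn, a Src family kinase, was called, at -0.53 (SE 0.15, limma adjusted p = 0.024) in IMDP against IMSP, where 25.6% of all genes tested were called. After scaling to the median Lyn was -0.25 and did not pass (limma adjusted p = 0.346). For G0M+ against G0M-, Cd72 was called higher after that scaling and with the library-number block, which also called Lyn lower.

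Ikaros acts with the NuRD chromatin complex, and 12 of 13 genes of its family and that complex were tested. In IMDP against IMSP 7 of the 12 were lower and none higher, where 25.6% of all genes tested were called, with a median log2 difference of -0.38 beside -0.25 for all genes, and scaling to the median left 3 of the 7 called (Mbd3, Rbbp4 and Rbbp7). Averaged over treatments 5 of the 12 were lower in G0M+ cells, where 26.3% of all genes tested were called, led by Mbd3 at -0.65 (SE 0.13, limma adjusted p = 0.00458) and Rbbp4 at -0.42 (SE 0.11, limma adjusted p = 0.0155), and 3 of them were called after scaling to the median. With the library-number block 7 were lower and Ikzf2 was higher, where 46.9% of all genes tested were called. After scaling to the median, 1560 of 10072 genes were called in IMDP against IMSP and 2360 in the average over treatments. None of the 12 was called with imatinib.

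Mki67, a proliferation gene, averaged 14.7 RPKM in DP and 8.16 in IMDP against 54.2 in SP and 61.1 in IMSP, and was lower in G0M+ cells, with a log2 difference of -2.42 (SE 0.16, limma adjusted p = 6.12e-06), while Cdkn1b averaged 6.66 to 8.02 RPKM in the 4 groups. Kit, Cd27 and Ptprc had group means of 13.1 to 33.2 RPKM, with no call between G0M+ and G0M- cells. Ly6a, which encodes the Sca1 that all groups were gated on, averaged 11.7 RPKM in DP and 19.0 in IMDP against 4.55 in SP and 6.63 in IMSP, and was higher in G0M+ cells by 1.42 (SE 0.28, limma adjusted p = 0.00544). The 7 neutrophil and monocyte markers summed to 66 to 1380 RPKM in G0M+ and 367 to 2550 RPKM in G0M- libraries, led by Mpo and Ctsg. The 7 mast cell and basophil markers, led by Mcpt8 and Cpa3, reached 287 RPKM in DP and 172 RPKM in IMDP against at most 26.4 RPKM in G0M- cells, the 6 macrophage markers reached 13.6 RPKM, and the 6 erythroid markers reached 104 RPKM, in the first IMDP library, of which Hba-a1 was 102 RPKM.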

How the data were processed

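The deposited files hold 1 RPKM value per feature and library, which the authors made from 100-cell Nextera XT libraries mapped to GRCm38/mm10 and normalized to transcript length and library size. CLC Genomics Workbench is the mapper in the study's methods, but HISAT2 with featureCounts is listed in its reporting summary, so which of them made the files is not settled. The submitters' notes also name edgeR. The annotation used is not given in the sources used here, and without strand, reads of overlapping antisense genes cannot be told apart. The 48737 features, numbered copies summed, gave 46103 genes. Whole reads were recovered for 17735 of 17735 features above 0 (tolerance 0.1 reads). The libraries held 11367631 to 20573779 reads.

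Genes at 1 RPKM or more in at least 3 libraries (10072) were tested on log2(RPKM + 0.1) with limma 3.58.1 (R 4.3.3) on 4 group means, with p-values adjusted by Benjamini-Hochberg over all genes and a threshold of 0.05. For members under this level, mean RPKM was compared by exact two-sided permutation. Scripts were tested on simulated data. The members and lists were chosen with earlier results of these data known.

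The genes named were the 10 members, 6 sort checks (Mki67, Cdkn1b, Kit, Ly6a, Cd27 and Ptprc), up to 4 called genes per pathway list, by smallest adjusted p, the 2 most abundant genes of each marker list, and the 3 genes most like each member that averages at least 5 RPKM; genes added after their values were seen are marked or stand as values beside a member. Across genes, deviations from the group mean correlated by 0.429 to 0.655 between IMDP and IMSP libraries of the same number, and by -0.298 to -0.098 between DP and SP libraries. Neighbouring library numbers paired the libraries of both treatments, at 0.495 to 0.519 for DP and SP and, being the same pairs, 0.429 to 0.655 for IMDP and IMSP. Sequences and motifs came from RefSeq (GRCm38.p6) and gene positions from GENCODE M21. The alternatives were a pseudocount of 1, no filter, only the groups compared, a replicate or library-number block, median scaling, limma-voom on recovered reads, copies kept apart and leaving out each library; the reads on listed features as denominator and, for Il7r, leaving out libraries and permuting within treatment were added after seeing the data.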

Additional observations from a re-analysis of the deposited data

How the results depend on the processing

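With groups of 3 libraries and members of few reads, most values here rest on small counts. The number of members called was 1 for imatinib against vehicle as reported, and 0 with a pseudocount of 1, without the filter, by limma-voom and with copies kept apart; without 1 library it ranged from 0 to 2, the 2 being Dntt and Satb1 without the second IMDP replicate. The cause of these losses was not tested. Dntt kept its direction in all 19 settings (log2 difference 1.61 to 5.31). Without the filter 1 member, Il7r, was called in DP against SP and 1 in G0M+ against G0M-, and with the library-number block 1 (Dntt) was called in G0M+ against G0M-. With the replicate number as a block, 1 member (Dntt, adjusted p = 0.0315, limma) was called for imatinib against vehicle and 0 in the other contrasts, so that this block changed no call of a member, unlike the block by library number.

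Signs changed only for differences that did not pass. With median scaling and with reads on listed features as denominator, Satb1 in IMDP against IMSP went to 0.16 and 0.2, and Ikzf1 to 0.14 and 0.19 in IMDP against DP and to 0.07 and 0.09 in G0M+ against G0M-. When libraries were left out, Satb1 ranged from -0.65 to 0.71 in IMDP against IMSP, from -0.07 to 0.61 in G0M+ against G0M- and from -1.15 to 0.21 in the interaction, Ikzf1 from -0.13 to 0.22 in IMDP against DP and from -0.15 to 0.02 in G0M+ against G0M-, and the Dntt interaction from -1.94 to 0.3. The exact permutation p of Il7r between populations was 0.00433 on the log2 scale, 0.005 when permuted within treatment and 0.00216 to 0.00866 when libraries were left out, and between treatments 0.457 to 0.994, with a change of sign without the first or the third DP replicate.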
